A study of Homo sapiens with 6 samples.

Results

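The proteasome is the large protease that degrades most proteins tagged with ubiquitin. Its barrel, the 20S core, is built of α rings, which form the gate, and β rings, which hold the 3 proteolytic sites. A 19S cap binds the ubiquitin chain, removes it, and unfolds the substrate with a ring of ATPases before feeding it into the core. In cells stimulated by interferon, the 3 catalytic β subunits are exchanged for immunoproteasome subunits, which favour peptides suited to antigen presentation. Dedicated chaperones assemble core and cap, and tumour cells are known to depend on this machinery.

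The genes examined here are those whose symbol is PSM, a class letter from A to G and a number. The rule used names only and no measured value. It found 46 of the 35474 genes listed, and all 46 passed edgeR's filter on low counts, so that no member was lost. They are 7 α subunits, 7 constitutive β subunits, 3 immunoproteasome subunits, 17 cap subunits, 7 assembly chaperones, 4 activators and 1 inhibitor. PSMA8 and PSMB11, the testis and thymus forms, would match the rule, but neither symbol is among the genes listed.

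RNA was collected 48 h after siRNA transfection from A549, a human lung adenocarcinoma line, and each group held 3 cultures. The siBAP18 cultures received siRNA against BAP18, a chromatin-associated protein encoded by C17orf49, and the siCtrl cultures a nontargeting siRNA. The study lists 3 BAP18 siRNAs, and which of them these cultures received is not given in the sources used here. The labels call the 3 libraries of a group separate biological samples of this single line. The edgeR p-values measure the spread between them, taken as common to both groups.

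Library totals ranged from 46035635 to 53657450 counts in siCtrl and from 42094524 to 56548620 in siBAP18. C17orf49 (chromosome 17, 7014495 to 7017525) held 743, 751 and 705 counts in siCtrl and 120, 137 and 108 in siBAP18. Its log2 fold change was −2.65 (standard error 0.111). The epithelial markers of A549 were abundant, with a summed level of 3830 to 4057 RPKM in siCtrl and 2972 to 3438 in siBAP18, and 4 of the 5 were lower in siBAP18 cells. Leukocyte markers summed to at most 0.896 RPKM in any library, with PTPRC and CD3E not listed. Fibroblast markers summed to 1.25 to 1.38 RPKM in siCtrl and 0.929 to 1.07 in siBAP18, and endothelial markers to at most 0.158. Fewer cells of a type and less RNA per cell cannot be told apart in such bulk libraries.

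Levels across libraries are given as CPM, counts scaled to library totals that TMM adjusted, and levels between genes as RPKM, which also divides by gene length. Every log2 fold change is siBAP18 over siCtrl, and every edgeR adjusted p comes from the quasi-likelihood test, corrected by the Benjamini-Hochberg method over the 20776 genes tested. A call means an adjusted p under 0.05.

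Of the 46 proteasome genes, 17 rose and 6 fell in siBAP18 cells. Among all genes tested, 24.5% rose and 25.1% fell, so that 37.0% of the proteasome genes stood against 24.5% on the higher side, and 13.0% against 25.1% on the lower side. In either direction 23 of the 46 were called, a share close to the 10305 of 20776 over all genes. The median log2 fold change was 0.07, beside 0.00 over all genes tested. No proteasome gene moved by more than 1 on the log2 scale and passed the test, as 8.46% of all genes did. In 26 members every siBAP18 library lay on the same side of all siCtrl libraries, a share of 56.5% beside 56.6% of all genes tested. Without siBAP18 replicate 2 the counts were 22 higher and 10 lower, and limma on log2(RPKM + 1) without a filter gave 15 higher and 3 lower.

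The share of all counts that fell on the 46 genes was 0.552%, 0.544% and 0.551% after siCtrl, beside 0.631%, 0.624% and 0.623% after siBAP18, without overlap. The mitochondrial share was 6.86% to 7.43% in siCtrl and 5.27% to 6.14% in siBAP18, and their part in the rise of that share was not tested. Of the 23 called members, 13 kept their call under every alternative that was run at this threshold. They are PSMB1, PSMB6, PSMC1, PSMC3, PSMC4, PSMD3, PSMD4, PSMD7, PSMD9, PSMD13 and PSMF1, which rose, and PSMB7 and PSMD1, which fell.

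**Figure D1:**
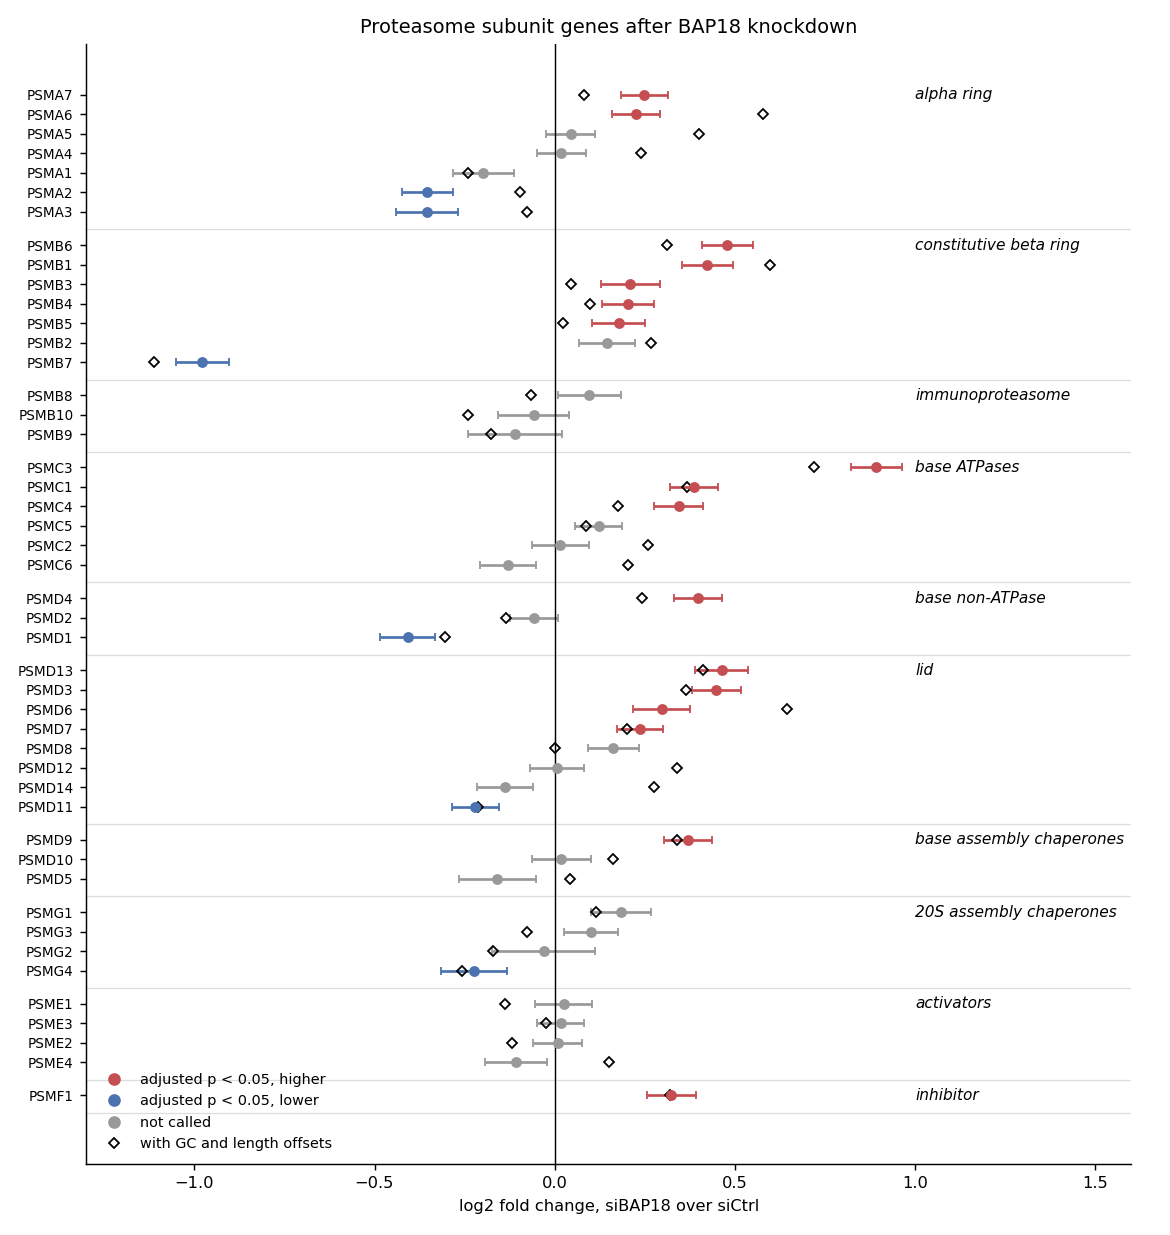
Log2 fold change of each of the 46 proteasome genes, siBAP18 over siCtrl, grouped by class. Points show edgeR's estimate, bars 1 standard error, and colours the call, while open diamonds show the estimate with offsets for GC content and gene length. PSMB7 (−0.98) and PSMC3 (0.89) lie farthest from 0.

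GC content moved with the libraries. Across 14172 genes, the deviation of a library from the mean of all 6 correlated with GC content at a Pearson r of −0.28, −0.31 and −0.27 in siCtrl replicates 1, 2 and 3. In siBAP18 replicates 1, 2 and 3 it was 0.24, 0.08 and 0.47. Over the 46 proteasome genes alone, the values were −0.32, −0.30 and −0.22 in siCtrl and 0.19, −0.26 and 0.60 in siBAP18. Here siBAP18 replicate 3 stood highest, and siBAP18 replicate 2 lay within the range of the siCtrl libraries. These correlations are across genes, which share their library and are not replicates. The median GC content was 50.9% in members called higher, 46.0% in those called lower and 46.7% in the rest. With offsets for GC content and gene length, 13 of the 17 higher and 4 of the 6 lower members kept their call, and 12 other members gained a call, 9 of them higher. Over the 46 members, the log2 fold change correlated with GC content at a Pearson r of 0.29 without these offsets and −0.29 with them. In these genes the offsets thus turned the relation and did not remove it, and neither fit is taken as the corrected one. Members whose call ended are named with their class.

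The sharpest fall among the proteasome genes was that of PSMB7, the trypsin-like catalytic subunit of the β ring. PSMB7 (chromosome 9, 124353466 to 124415444, − strand, GRCh38) had 131, 126 and 129 CPM in siCtrl and 61.4, 61.3 and 73.3 CPM in siBAP18. Every siBAP18 library lay far below every control. The mean fell from 129 ± 2.57 to 65.3 ± 6.88 CPM (SD, n = 3), a ratio of 0.508. The log2 fold change was −0.98 (standard error 0.0731, edgeR adjusted p = 4.21e-11). It stayed between −1.06 and −0.93 with each library left out and was −1.11 with the GC and length offsets. PSMB7 shares no exon bases with another listed gene.

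The bases of the PSMB7 transcript that match an siRNA of the study are shown because PSMB7 moved apart from its partners. The 3′ UTR of PSMB7 is 132 bases long in GENCODE 29, lies in exon 8 of 8, and holds, from its base 93, the word complementary to bases 2 to 8 of the siBAP18#3 guide strand. The capitals mark this word in the transcript's sense (chr9:124353488-124353517, − strand, GRCh38).
PSMB7 3′ UTR: ttgccgaatgaaACTCAACtcaataaaaaa
The word lies 2 bases before AATAAA, the canonical polyadenylation hexamer. The match to the siBAP18#3 guide runs on beyond the capitals, over gaa before them and t after them. The counts of genes that follow are for the word alone. PSMB7 was the 1 member of the 45 with an annotated 3′ UTR of at least 50 bases that holds this word, which occurs in 946 of 13639 such genes (6.94%). The corresponding word for siBAP18#1 occurs in PSMA5, PSMD12 and PSME3, whose log2 fold changes were 0.04, 0.01 and 0.02. The word for siBAP18#2 occurs in PSME4 and PSMF1, at −0.11 and 0.32. A match is a description of these letters, and the part of any siRNA match in the PSMB7 result was not tested.

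The other constitutive β subunits moved the other way. Of the 6 besides PSMB7, 5 rose, and the sixth, PSMB2, had a log2 fold change of 0.15 (edgeR adjusted p = 0.124). PSMB6, the caspase-like catalytic subunit, had 60.4, 58.3 and 60.9 CPM in siCtrl and 86.4, 75.2 and 89 CPM in siBAP18. Its lowest siBAP18 library lay well above the highest control, and the log2 fold change was 0.48 (standard error 0.0714, edgeR adjusted p = 3.92e-06), or 0.31 with the GC and length offsets. PSMB1, a structural subunit of the ring, rose from 48.3, 42.7 and 46.8 CPM to 64.3, 57.8 and 62.9 CPM, with a log2 fold change of 0.42 (standard error 0.0711, edgeR adjusted p = 1.99e-05). Both calls held in every alternative run at this threshold.

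The rises of PSMB3, PSMB4 and PSMB5 were smaller, and their calls were lost in several of the fits that left out a library, in some at an equal or larger estimate. PSMB5, the chymotrypsin-like subunit that is the main target of bortezomib, had 100.5, 92 and 103 CPM in siCtrl and 112, 100.3 and 122 CPM in siBAP18, and the groups overlapped. Its log2 fold change of 0.18 (standard error 0.0738, edgeR adjusted p = 0.0479) passed the threshold only without siBAP18 replicate 2 among the 6 fits that left out a library. Without siCtrl replicates 1, 2 and 3 it was 0.19, 0.13 and 0.21, and without siBAP18 replicates 1 and 3 it was 0.17 and 0.11. PSMB3 (0.21, edgeR adjusted p = 0.0346) also passed only without siBAP18 replicate 2. It was 0.22, 0.16 and 0.23 without siCtrl replicates 1, 2 and 3, and 0.24 and 0.10 without siBAP18 replicates 1 and 3. PSMB4 (0.20, edgeR adjusted p = 0.0215) lost its call without siCtrl replicate 1 (0.21), siCtrl replicate 2 (0.17) or siBAP18 replicate 1 (0.19). With the GC and length offsets the values of PSMB3, PSMB4 and PSMB5 were 0.05, 0.10 and 0.02, and none was called. PSMB2, in contrast, gained a call with those offsets (0.27, edgeR adjusted p = 0.00329) and without siBAP18 replicate 2 (0.19, edgeR adjusted p = 0.0418).

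**Figure D2:**
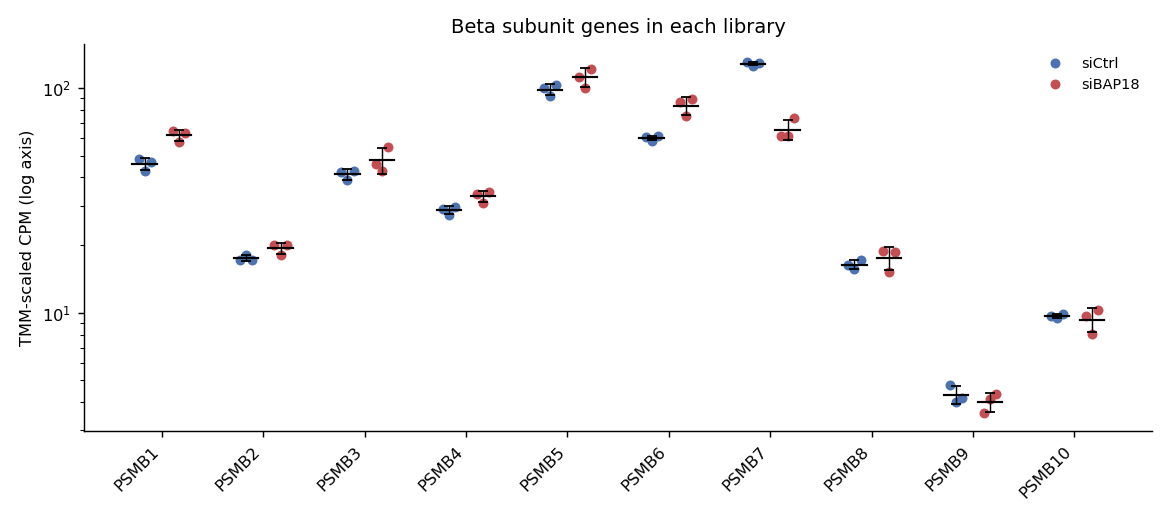
TMM-scaled CPM on a log axis of the 10 β subunit genes in each of the 3 siCtrl and 3 siBAP18 libraries. Points are libraries, horizontal bars the means and vertical bars the SD over 3 libraries. PSMB7 drops from 129 to 65.3 CPM, while the other constitutive subunits lie at or above their control levels and PSMB8, PSMB9 and PSMB10 overlap between groups.

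The sum over the ring hid these changes. The 7 constitutive β subunits together had 240.8 ± 6.45 RPKM in siCtrl and 244.4 ± 13.2 RPKM in siBAP18 (SD, n = 3). Without PSMB7, a division made after its value was seen, the remaining 6 summed to 169 ± 5.84 and 207.9 ± 11.6 RPKM, a ratio of 1.23. In the siCtrl libraries PSMB7 had the highest mean level of the 7 per gene length, at 71.8 RPKM, above PSMB5 at 55.7 and PSMB6 at 41.3. In siBAP18 cells the order was PSMB5 at 63.1, PSMB6 at 57.7, PSMB3 at 40.5 and PSMB7 at 36.5 RPKM. The SDs of PSMB3 and PSMB7 there were 3.91 and 2.60 RPKM, so that the order of these 2 is not beyond their spread.

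None of the 3 immunoproteasome subunits was called. PSMB8, the counterpart of PSMB5, had 16.3, 15.7 and 17.1 CPM in siCtrl and 18.9, 15.1 and 18.6 CPM in siBAP18 (log2 fold change 0.10, edgeR adjusted p = 0.385). PSMB9, the counterpart of PSMB6, had 4.76, 4 and 4.17 CPM in siCtrl and 3.57, 4.13 and 4.34 CPM in siBAP18 (−0.11, edgeR adjusted p = 0.515). PSMB10, the counterpart of PSMB7, had 9.7, 9.44 and 9.9 CPM in siCtrl and 9.63, 8.08 and 10.3 CPM in siBAP18 (−0.06, edgeR adjusted p = 0.657). All 3 overlapped between the groups. PSMB8 was called higher without siBAP18 replicate 2 (0.20, edgeR adjusted p = 0.0438), and PSMB10 lower with the GC and length offsets (−0.24, edgeR adjusted p = 0.0187). PSMB10 shares 34.8% of its exon bases with a gene on the same strand, CTC-479C5.12, and PSMB8 shares 21.2% with PSMB8-AS1 on the opposite strand.

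Because each immunoproteasome subunit takes the place of a constitutive partner, their RPKM ratio was formed within each library. PSMB10 over PSMB7 was 7.17%, 7.24% and 7.38% in siCtrl and 15.1%, 12.7% and 13.5% in siBAP18. The siBAP18 libraries stood far above the controls (log2 difference 0.92). PSMB9 over PSMB6 was 3.71%, 3.23% and 3.23% in siCtrl and 1.95%, 2.59% and 2.30% in siBAP18, all below the controls (log2 difference −0.58). PSMB8 over PSMB5 was 14.6% ± 0.373 and 13.8% ± 0.839 (SD, n = 3), with overlapping groups. The sum of the 3 immunoproteasome subunits over the sum of their partners was 8.75% ± 0.0722 in siCtrl and 9.58% ± 0.386 in siBAP18. The first 2 ratios and the summed ratio reached 0.1 in a two-sided exact permutation test, the smallest p that 3 libraries against 3 allow, and adjusted p = 0.133 over the 4 exact tests. The exact p for PSMB8 over PSMB5 was 0.3. These ratios hold the values of the constitutive partners described above, and the numerators PSMB9 and PSMB10 were themselves not called.

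**Figure D3:**
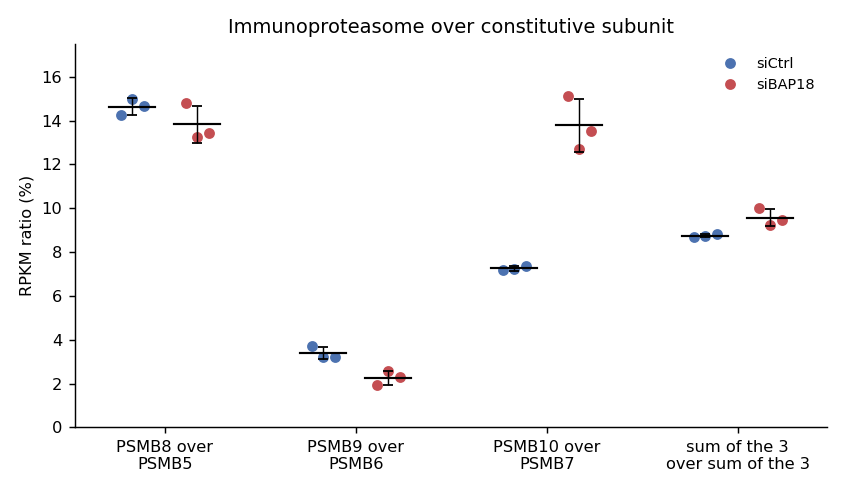
RPKM of each immunoproteasome subunit gene as a percentage of its constitutive partner, and of the 3 summed over the 3 summed, in each library. Points are libraries, horizontal bars the means and vertical bars the SD over 3 libraries. The mean of PSMB10 over PSMB7 is 7.26% in siCtrl and 13.8% in siBAP18, and that of PSMB9 over PSMB6 is 3.39% and 2.28%.

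The α ring, which closes the barrel and carries the gate, moved in both directions. Of its 7 subunits 2 fell, 2 rose and 3 were not called, and the median log2 fold change was 0.02. PSMA3 had 54.5, 50.6 and 51.5 CPM in siCtrl and 42.5, 46.1 and 33.5 CPM in siBAP18, the lowest in replicate 3. Its log2 fold change was −0.35 (standard error 0.0864, edgeR adjusted p = 0.00129). PSMA2 fell by a like amount, from 40.8, 39.3 and 38.4 CPM to 29.3, 32.2 and 31.2 CPM (−0.35, edgeR adjusted p = 0.000154). It shares 781 exon bases with RP11-111K18.1 on the same strand, which had 46.9 CPM in siCtrl and 40.5 in siBAP18. It shares 1043 more with AC010132.11 on the opposite strand. With the GC and length offsets PSMA2 was at −0.10 and PSMA3 at −0.08, and neither was called. PSMA3 also missed the threshold with limma on log2(RPKM + 0.1) (limma adjusted p = 0.0505). PSMA1, at −0.20 (edgeR adjusted p = 0.0553), was called lower without siCtrl replicate 2 (−0.25) and with those offsets (−0.24). PSMA1 shares 24.7% of its exon bases with RP11-140L24.4 on the same strand, which had 17.6 CPM in siCtrl and 14.8 in siBAP18.

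On the other side of the α ring, PSMA7 had 210.2, 212 and 210.1 CPM in siCtrl and 256, 238 and 258 CPM in siBAP18. The groups were well apart, and the log2 fold change was 0.25 (standard error 0.0647, edgeR adjusted p = 0.00233). With the GC and length offsets PSMA7 was at 0.08 and lost its call. PSMA6 rose by 0.23 (edgeR adjusted p = 0.00626) and lost its call without siCtrl replicate 2 (0.19) or siBAP18 replicate 1 (0.19), while with the GC and length offsets it stood at 0.58 (edgeR adjusted p = 3.64e-08). PSMA6 shares 919 exon bases on the same strand with RP11-561B11.2, which had 209 CPM in siCtrl and 238 in siBAP18. PSMA4 (0.02) and PSMA5 (0.04) were not called, but with the GC and length offsets they stood at 0.24 and 0.40 and both passed the test. The summed level of the ring was 228 ± 1.23 RPKM in siCtrl and 251.9 ± 9.67 RPKM in siBAP18, of which PSMA7 held the largest part.

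In the 19S cap 8 of 17 subunits rose, 2 fell and 7 were not called, with a median log2 fold change of 0.16. The 14 constitutive core subunits were alike, with 7 higher, 3 lower, 4 not called and a median of 0.16. The summed level of the cap was 832 ± 5.47 RPKM in siCtrl and 1047 ± 4.62 RPKM in siBAP18. This is a ratio of 1.26, beside 1.06 for the 14 constitutive core subunits. The cap sum holds PSMC3, which went from 113 to 211 RPKM. The core sum holds PSMB7, which went from 71.8 to 36.5 RPKM. The 2 sums are descriptions, and no test of their difference was made.

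The largest rise in the cap was that of an ATPase, part of the motor ring that unfolds substrates. PSMC3, an ATPase whose tail docks into the α ring and opens the gate, had 259, 252 and 265 CPM in siCtrl and 457, 453 and 531 CPM in siBAP18. Every siBAP18 library was more than 1.5 times as high as every control, and the means were 259 ± 6.18 and 480.3 ± 43.9 CPM (SD, n = 3), a ratio of 1.86. The log2 fold change was 0.89 (standard error 0.0711, edgeR adjusted p = 1.31e-10), from 0.82 to 0.93 with a library left out and 0.72 with the GC and length offsets. PSMC3 lies on chromosome 11 (47418769 to 47426473, − strand) and shares no exon bases with another listed gene. Its level per gene length rose from 113 to 211 RPKM.

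Of the 6 ATPases, which stand in equal numbers in the ring, 3 rose and 3 were not called. PSMC1 rose by 0.39 (standard error 0.0669, edgeR adjusted p = 3.07e-05), and PSMC4 by 0.34 (standard error 0.0676, edgeR adjusted p = 0.000142). PSMC4 was at 0.18 with the GC and length offsets, still called. PSMC5 (0.12, edgeR adjusted p = 0.127), PSMC2 (0.02) and PSMC6 were not called. PSMC6, the lowest of the class, had 37, 38.9 and 38.2 CPM in siCtrl and 36.4, 37.3 and 30.3 CPM in siBAP18 (−0.13, edgeR adjusted p = 0.169). Its siBAP18 replicate 3 was the lowest, and the other siBAP18 libraries lay close to the controls. PSMC6 was called lower without siBAP18 replicate 2 (−0.19, edgeR adjusted p = 0.0396) and higher with the GC and length offsets (0.20, edgeR adjusted p = 0.00480). PSMC2 was called higher with those offsets (0.26), and PSMC5 without siBAP18 replicate 2 (0.15) and in all 3 limma fits (0.12, limma adjusted p = 0.0381 with a pseudocount of 1). PSMC1 is uncertain for another reason, since 75.8% of its exon bases overlap NRDE2 on the opposite strand, and the pseudogene PSMC1P1, at 4.94% of its counts, rose by 0.36.

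**Figure D4:**
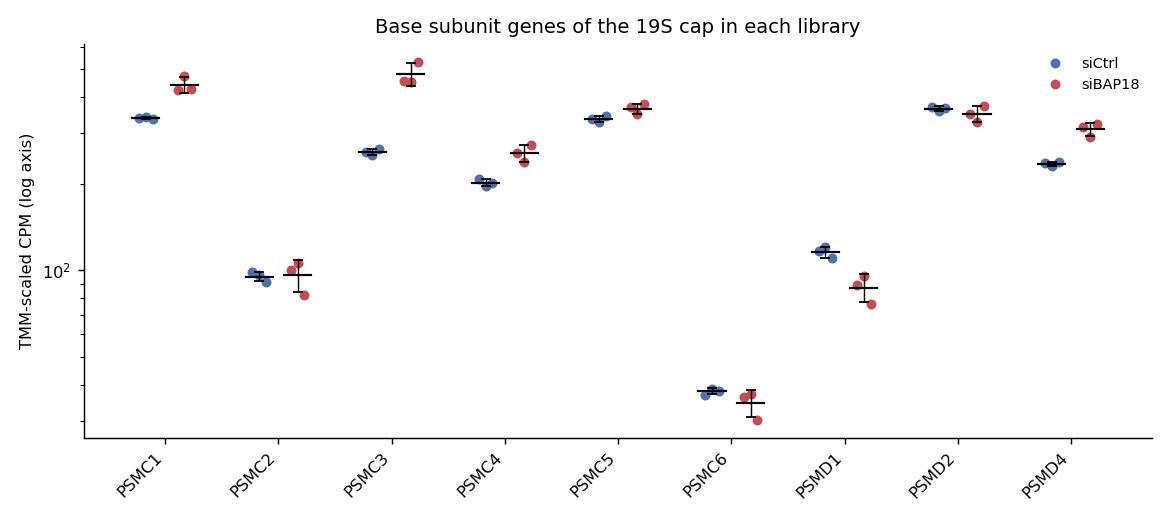
TMM-scaled CPM on a log axis of the 6 ATPase genes and 3 non-ATPase genes of the base in each library. Points are libraries, horizontal bars the means and vertical bars the SD over 3 libraries. PSMC3 rises from 259 to 480.3 CPM and PSMD4 also lies above its controls, while PSMD1 lies below.

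The non-ATPase subunits of the base went in different directions. PSMD4, a receptor for ubiquitin chains, had 235, 231 and 239 CPM in siCtrl and 316, 291 and 323 CPM in siBAP18, with no overlap (0.40, standard error 0.0660, edgeR adjusted p = 1.79e-05), and stood at 0.24 with the GC and length offsets. PSMD1, a large scaffold subunit, had 117, 120.2 and 110.4 CPM in siCtrl and 89.3, 95.9 and 76.6 CPM in siBAP18. All siBAP18 libraries were below all controls (−0.41, standard error 0.0754, edgeR adjusted p = 6.77e-05), and the fall was −0.30 with the GC and length offsets. PSMD2, the other large scaffold, was not called (−0.06, edgeR adjusted p = 0.508), but was called lower with those offsets (−0.14).

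In the lid, which positions and cuts off the ubiquitin chain, 4 of 8 subunits rose and 1 fell, with a median log2 fold change of 0.20. PSMD13 had 103, 95.4 and 107 CPM in siCtrl and 146, 126 and 149.6 CPM in siBAP18 (0.46, standard error 0.0729, edgeR adjusted p = 8.46e-06). PSMD3 rose by 0.45 (edgeR adjusted p = 6.17e-06), PSMD6 by 0.30 (edgeR adjusted p = 0.00258) and PSMD7 by 0.24 (edgeR adjusted p = 0.00317). PSMD6 missed the threshold with limma on log2(RPKM + 1) (0.24, limma adjusted p = 0.0610) and was at 0.64 with the GC and length offsets. PSMD7 shares 842 exon bases with AC009120.6 on the opposite strand, which had a log2 fold change of 0.24. Use of strand in counting is not given in the sources used here, so reads of the 2 genes cannot be told apart.

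PSMD11, a lid subunit that clamps the cap to the core, fell from 109, 109.5 and 103 CPM to 91.6, 95.2 and 89 CPM. The groups did not overlap (−0.22, standard error 0.0654, edgeR adjusted p = 0.00665), but with offsets for gene length alone the value was −0.12 and was not called. PSMD14, the deubiquitinase of the lid, was not called (−0.14, edgeR adjusted p = 0.146). It was called lower without siBAP18 replicate 2 (−0.20) and higher with the GC and length offsets (0.27, edgeR adjusted p = 0.000581). PSMD8 (0.16, edgeR adjusted p = 0.0627) lay close to the threshold. It was called higher without siBAP18 replicate 2 (0.24), with total counts only (0.17), with a minimum of 10 counts, in both filtered limma fits and with DESeq2 (0.17, DESeq2 adjusted p = 0.0449). It was at 0.000332 with the GC and length offsets, and PSMD12 (0.01) higher with the GC and length offsets (0.34).

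Of the 7 assembly chaperones, 1 rose and 1 fell. PSMD9, which escorts ATPases during assembly of the base, had 83.9, 88.6 and 83.8 CPM in siCtrl and 106, 107 and 118 CPM in siBAP18. The groups did not overlap (0.37, standard error 0.0676, edgeR adjusted p = 5.91e-05). PSMD9 shares 1307 exon bases with RP11-87C12.2 on the same strand, which had a log2 fold change of 0.38. PSMD5, another base chaperone, had 13, 14.9 and 12.8 CPM in siCtrl and 13, 13.7 and 9.55 CPM in siBAP18 (−0.16, edgeR adjusted p = 0.227) and was called lower without siBAP18 replicate 2 (−0.26). PSMD10, also known as gankyrin, stood at 0.02 (edgeR adjusted p = 0.870) and was called higher with the GC and length offsets (0.16, edgeR adjusted p = 0.0456).

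PSMG1 to PSMG4 encode the chaperones that build the α ring. PSMG4 had 14.3, 14.2 and 13.2 CPM in siCtrl and 13, 12.1 and 10.4 CPM in siBAP18, just separate (−0.22, standard error 0.0908, edgeR adjusted p = 0.0428). It lost its call without siCtrl replicate 1 (−0.21), 2 (−0.21) or 3 (−0.26), without siBAP18 replicate 3 (−0.14) and in 8 other alternatives, DESeq2 among them (−0.22, DESeq2 adjusted p = 0.0716). PSMG4 shares 1388 exon bases with SLC22A23 on the opposite strand, which fell from 34.6 to 24.1 CPM (−0.52, edgeR adjusted p = 1.62e-06). It shares 174 with TUBB2B, also on the opposite strand, which rose (0.35, edgeR adjusted p = 0.00166). The part of these genes in the PSMG4 counts was not tested. PSMG1 had 21, 22 and 21.6 CPM in siCtrl and 22.1, 23.3 and 28 CPM in siBAP18. It was not called (0.18, edgeR adjusted p = 0.0719), but was without siBAP18 replicate 1 (0.25) or 2 (0.21). PSMG2 (−0.03) and PSMG3 (0.10) were not called.

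Neither the 11S activators nor PA200 was called. These rings bind the core in place of the cap and let in peptides without ubiquitin. PSME1, which with PSME2 forms the activator raised by interferon, had the highest level per gene length of all 46 genes, at 267.8 ± 12.1 RPKM in siCtrl and 273 ± 25.4 RPKM in siBAP18. Its CPM were 490.0, 448 and 496 in siCtrl and 471, 433 and 556 in siBAP18, with overlapping groups (0.03, edgeR adjusted p = 0.817). PSME2 and the nuclear form PSME3 stood at 0.01 and 0.02. PSME4, which encodes PA200, had 30.4, 29.9 and 28.9 CPM in siCtrl and 27.7, 31.5 and 23.5 CPM in siBAP18 (−0.11, edgeR adjusted p = 0.311), and was called lower without siBAP18 replicate 2 (−0.21) and higher with the GC and length offsets (0.15, edgeR adjusted p = 0.0485). PSMF1, an inhibitor of the free core in vitro, rose from 124, 116 and 124 CPM to 158, 139.8 and 158 CPM. The groups did not overlap (0.32, standard error 0.0688, edgeR adjusted p = 0.000333).

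**Figure D5:**
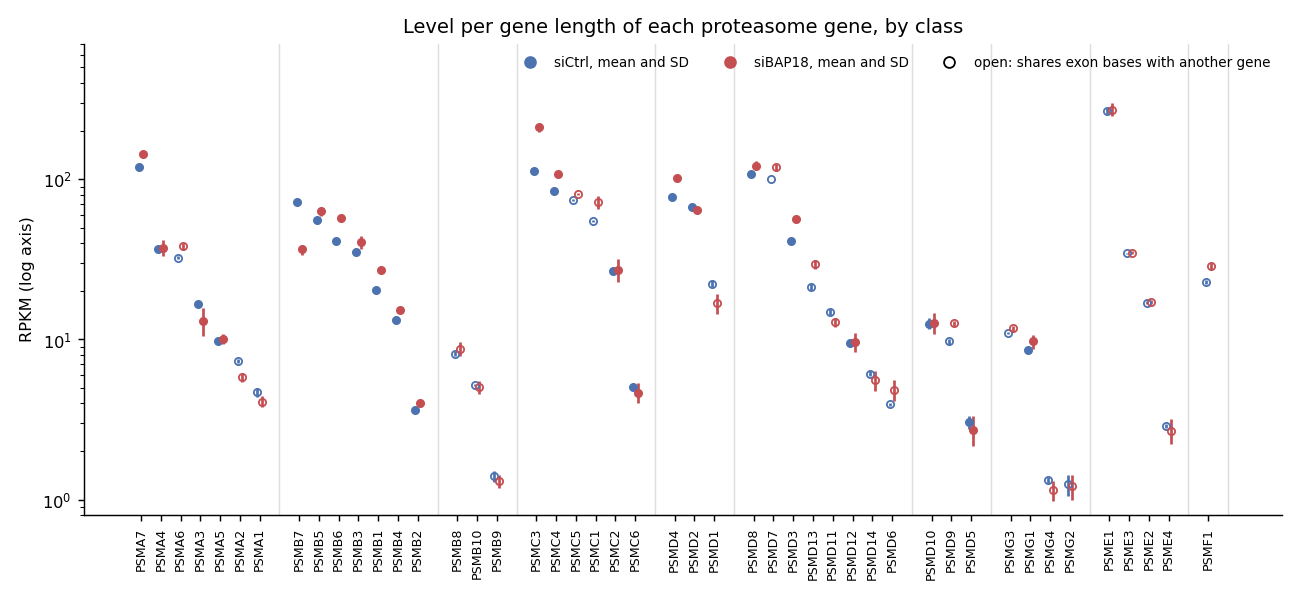
Mean RPKM of each proteasome gene on a log axis, by class from left to right in the order α ring, constitutive β ring, immunoproteasome, ATPases, other base, lid, base chaperones, core chaperones, activators and inhibitor. Bars are the SD over 3 libraries, and open symbols mark genes that share exon bases with another listed gene. Levels run from 1.23 RPKM (PSMG2) to 270.3 RPKM (PSME1) averaged over all 6 libraries.

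Levels within a class differed far more than levels between the groups. Averaged over the 6 libraries, the α subunits ranged from 4.39 RPKM (PSMA1) to 132 RPKM (PSMA7), and the ATPases from 4.86 (PSMC6) to 162 (PSMC3). The lid ranged from 4.40 RPKM (PSMD6) to 115 (PSMD8). RPKM divides by all listed exon bases of a gene, so that a gene with long rarely used exons stands lower than its RNA. PSMA1, the lowest α subunit, shares 24.7% of its exon bases with RP11-140L24.4 on the same strand. How reads of such shared bases were assigned is not given in the sources used here. The part of gene length and of shared bases in these ranges was not tested.

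Proteasome genes share promoter elements bound by the factor NRF1, the product of NFE2L1, which restores their transcription when the protease is inhibited. Promoters of 40 members, from 250 bases before to 50 after the start in RefSeq (GRCh38.p14), were searched on both strands for TGACNNNGC, the core of the antioxidant response element. It occurred in 15 of 40 members (37.5%), beside 16.1% of all promoters of this length and 19.2% of those of genes tested. Among the members it was in 4 of 13 called higher, 1 of 5 called lower and 10 of 22 not called. The NF-Y box CCAAT was in 47.5% of members, beside 39.7% of all promoters and 42.5% of those of genes tested. It was in 6 of 13 members called higher, 2 of 5 called lower and 11 of 22 not called. The ETS word CCGGAAG was in 35.0% of members, beside 12.2% of all promoters and 20.1% of those of genes tested, and in 7 of 13, 1 of 5 and 6 of 22. No hit of 1 word shared bases with a hit of another in the members' windows, and a hit is a description of these letters.

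The windows below show TGACNNNGC in capitals in members called higher, and for PSMC3, which has no such word in its window, a CCAAT box, since PSMC3 had the steepest rise. Each runs along the gene's own strand on GRCh38.p14, at chr12:121888630-121888709 (+) for PSMD9, chr17:39980727-39980806 (+) for PSMD3, chr17:38752611-38752690 (+) for PSMB3 and chr11:47426510-47426589 (−) for PSMC3.
PSMD9: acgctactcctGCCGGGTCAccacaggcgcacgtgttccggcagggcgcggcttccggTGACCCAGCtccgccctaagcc
PSMD3: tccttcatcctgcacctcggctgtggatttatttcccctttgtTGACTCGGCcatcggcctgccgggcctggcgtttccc
PSMB3: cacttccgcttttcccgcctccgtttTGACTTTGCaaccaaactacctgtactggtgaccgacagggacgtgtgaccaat
PSMC3: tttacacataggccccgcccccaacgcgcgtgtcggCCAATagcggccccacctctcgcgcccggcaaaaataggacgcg
In PSMD9 the first word is on the opposite strand. The log2 fold changes of PSMD9, PSMD3, PSMB3 and PSMC3 were 0.37, 0.45, 0.21 and 0.89. PSMC4, also called higher, holds TGACNNNGC after its start and is not shown. Among members not called, 10 of 22 held the word, a larger share than the 4 of 13 called higher. A link between the word and a rise was not tested.

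Among 12 genes of the NRF1 route, 4 rose, 2 fell and 6 were not called, with a median log2 fold change of 0.05. The share called is close to the 10305 of 20776 over all genes tested. Of all genes tested 24.5% rose and 25.1% fell, and these shares stand beside the counts of each list below as well. NFE2L1 itself rose from 468 ± 13.3 to 553 ± 21.4 CPM (SD, n = 3, log2 fold change 0.24, edgeR adjusted p = 0.00347). MAFF and MAFK, small partners of NRF1 and NRF2 on DNA, rose by 2.11 (edgeR adjusted p = 1.28e-17) and 0.79 (edgeR adjusted p = 2.99e-10). OGT, which glycosylates many nuclear proteins, fell by 0.88 on the log2 scale (edgeR adjusted p = 1.21e-10), and NFE2L2, which encodes NRF2, by 0.84 (edgeR adjusted p = 5.20e-10).

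Proteasome genes with other symbols moved in both directions. Of 12 such genes 3 rose and 4 fell, with a median of −0.04. ADRM1, a ubiquitin receptor of the cap, rose by 0.54 (edgeR adjusted p = 7.39e-07), and PAAF1, a chaperone of the base, by 0.51 (edgeR adjusted p = 2.10e-06). USP14, a deubiquitinase bound to the cap, fell by 0.45 (edgeR adjusted p = 1.20e-05), and IPO9, an importin for proteasomes, fell by 0.40 (edgeR adjusted p = 1.93e-05). POMP, the chaperone that completes the core, had 29.9 ± 1.31 and 29.6 ± 2.23 CPM (SD, n = 3) and was not called (edgeR adjusted p = 0.877). With the GC and length offsets POMP was called higher (0.28, edgeR adjusted p = 0.000381). The same offsets left USP14 at −0.11 and ZFAND5 at −0.02, neither of them called, and turned UCHL5, lower before (−0.26), to a call in the other direction (0.14, edgeR adjusted p = 0.0445). ADRM1 stood at 0.34 there.

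The activating enzyme UBA6 fell by 0.45 (edgeR adjusted p = 0.000632) but stood at −0.04 with the GC and length offsets, where it was not called, and UBB, which encodes ubiquitin, was not called (0.13, edgeR adjusted p = 0.143). Of 4 ubiquitin and activating enzyme genes 1 fell, with a median of −0.03, and 2 of the 4 were called without siBAP18 replicate 2 or without siBAP18 replicate 3. Of 5 shuttle receptors, which carry ubiquitinated proteins to the cap, 4 fell, with a median of −0.24. UBQLN2 fell by 0.42 (edgeR adjusted p = 0.00132), UBQLN1 by 0.25 (edgeR adjusted p = 0.0111) and UBQLN4 by 0.24 (edgeR adjusted p = 0.0110). With limma on log2(RPKM + 1) 2 of the 5 were called. With the GC and length offsets UBQLN1 had the opposite sign (0.12, not called), and UBQLN2 and UBQLN4 were the 2 that kept their calls, UBQLN4 at −0.38.

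Partners of the immunoproteasome in antigen processing were divided, with 3 of 9 higher and 4 lower and a median of −0.13. ERAP1, which trims peptides, fell by 0.49 (edgeR adjusted p = 1.29e-06), TAPBP, which loads them, by 0.50 (edgeR adjusted p = 2.88e-06), and B2M, the light chain of MHC class I, by 0.23 (edgeR adjusted p = 0.00774). IRF1, a transcription factor induced by interferon, rose by 0.24 (edgeR adjusted p = 0.00806). With the GC and length offsets B2M was at 0.04 and not called, and ERAP1 was at −0.18 and still called. Without siCtrl replicate 3 or without siBAP18 replicate 1, 4 of the 9 were called in place of 7.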

How the data were processed

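The authors deposited counts of reads per gene for 6 libraries and the same values as RPKM, which equal the counts over the listed gene length and the total of the column. Per the labels, libraries were made from poly(A) RNA with strand marking. The aligner, counting program and use of strand are not given in the sources used here, and hg38 and GRCm38 are both named in the submitters' processing notes. The exon positions are those of GRCh38. Of the counts above 0, 64.1% were even, as when both reads of a pair are counted singly, so that counting error may be understated.

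Members and lists were chosen with earlier results of these data known. Counts passing filterByExpr in edgeR 4.0.16 (R 4.3.3) were scaled by TMM and compared with the quasi-likelihood test without a block, and standard errors are the log2 fold change over the square root of F. Values per library are given for C17orf49, the catalytic subunits, and the lowest and highest member of each class. From each list up to 4 genes of smallest adjusted p are named, with NFE2L1, POMP and ADRM1. ZFAND5 and UCHL5 were named after their values were seen. A few genes were taken out of the ubiquitin and shuttle receptor lists and their counts, and are not reported here. PSMA2 and PSMB1 were given in full after their values were seen. Ratios used an exact permutation test (scipy 1.17.1). No library was a copy of another (chi-square over its degrees of freedom 4.14 to 4.81 within siCtrl and 11.2 to 25.8 within siBAP18). The siBAP18 libraries thus differed more from each other than the siCtrl libraries did. The test estimated a common spread per gene for both groups, which may be too small for siBAP18.

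Alternatives were other scalings, filters, limma 3.58.1 on log2 RPKM with pseudocounts of 1 and 0.1, DESeq2 1.42.0, a replicate block, gene-length offsets and each library left out. After seeing the data, GC and length offsets were added, with a GC value for 99.4% of genes tested. Scripts were checked on simulated data. Shared exon bases were taken from the exon positions deposited with the counts. The 3′ UTRs, the exon number in PSMB7 and GC content are from GENCODE 29, and promoters from RefSeq.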

Additional observations from a re-analysis of the deposited data

How the results depend on the processing

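The counts of proteasome genes called lower and higher stayed within 1.5 times of 6 and 17 under the other scalings, filters, limma and DESeq2 fits and offsets, except for 3 lower with limma on log2(RPKM + 1) without a filter. With each library left out they ranged from 5 to 10 lower and from 13 to 22 higher, and at an absolute log2 fold change over 1 they were 0 and 0. Replicate numbers share no stated origin, their correlations were 0.072, 0.222 and 0.105, and 6 of 6 libraries correlated best with their own number. With the replicate block 7 members were called lower and 19 higher, since PSMA1, PSMD8 and PSMG1 gained calls (edgeR adjusted p = 0.0385, 0.0221 and 0.0446). All signs that turned belong to members not called in the comparison reported. The median log2 fold changes moved with offsets for gene length to 0.12 in the α ring, 0.12 in the constitutive β ring, 0.0061 in the non-ATPase base, 0.13 in the lid and −0.0345 in the core chaperones. With GC and length offsets they moved to 0.10 in the constitutive β ring, −0.14 in the non-ATPase base, 0.31 in the lid, 0.16 in the base chaperones, −0.0722 in the activators and −0.12 in the core chaperones. With each library left out, the median was 0.12 to 0.25 in the constitutive β ring and −0.0271 to 0.0919 in the core chaperones. On CPM in place of RPKM, the log2 ratio of summed levels was 0.10 for the α ring, 0.40 for the ATPases, 0.0626 for the non-ATPase base and 0.0556 for the core chaperones. The cause of these shifts was not tested.

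With GC and length offsets the sign turned in PSMG3 (−0.0767), PSME4 (0.15), PSME2 (−0.12), PSME3 (−0.0251), PSME1 (−0.14), PSMC6 (0.20), PSMD5 (0.0438), PSMB8 (−0.0668) and PSMD14 (0.27). With length offsets it turned in PSME4 (0.0300), PSME2 (−0.0292), PSME1 (−0.0695), PSMC2 (−0.0226), PSMD10 (−0.0576) and PSMD2 (0.0061), and without a filter in PSME2 (−0.00664) and PSMD12 (−0.00811). With a library left out it turned in some fits of PSMG2 (−0.19 to 0.0821), PSME2 (−0.0208 to 0.0553), PSME3 (−0.0221 to 0.0511), PSME1 (−0.0795 to 0.10), PSMA4 (−0.0314 to 0.0767), PSMC2 (−0.0596 to 0.12), PSMD10 (−0.0679 to 0.10), PSMB10 (−0.13 to 0.0385) and PSMD12 (−0.0650 to 0.0790).

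Of the pathway lists, at an absolute log2 fold change over 1 the calls were 0 among other proteasome genes, 1 in the NRF1 route, 0 among ubiquitin genes, 0 among shuttle receptors and 0 among antigen processing partners. Shuttle receptors had 2 calls with limma at either pseudocount, 1 with limma and no filter, and 2 with GC and length offsets. Limma without a filter gave 0 calls among ubiquitin genes and 2 among antigen processing partners, which had 4 with GC and length offsets. With each library left out the calls ranged from 1 to 2 among ubiquitin genes and from 4 to 8 among antigen processing partners.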
